A study of Mus musculus with 2 samples.

Results

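The replication-dependent histone genes of mouse were described by cluster and by class in poly(A) RNA-seq of megakaryocyte-erythroid progenitors, the bone marrow cells that give rise to platelets and red cells. Members were all protein-coding genes of GENCODE M21 whose symbol starts with Hist1h, Hist2h, Hist3h or Hist4h. The rule found 67 genes, of which 64 had a row in the tables, out of 43346 annotated genes there. The 64 fell into 6 H1, 18 H2A, 15 H2B, 12 H3 and 13 H4 genes, and 52 of them belonged to Hist1, 9 to Hist2, 2 to Hist3 and 1 to Hist4. The H2B genes Hist1h2bh, Hist1h2bm and Hist2h2bb had no gene row and were not analysed here.

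The series holds 1 group, with no treatment and no control. It has 2 libraries, numbered by the labels as biological replicates 1 and 2, both of primary cells from adult female C57BL/6J mice aged 5 weeks. The labels give the cells as CD34-, and they name CD16/32 and lineages in the same phrase. They also give 1 donor identifier for both libraries, so the spread between replicates may not include spread between animals. With 1 group of 2 libraries there is no contrast to test: the smallest p that an exact two-sided sign test can give with 2 libraries is 0.5, and what follows compares genes within a library and asks whether both libraries show the same. The tables summed to 79539457 estimated counts in replicate 1 and 65305321 in replicate 2. Of the markers fixed for the label check, all 10 erythroid and megakaryocytic genes were at 1 TPM (transcripts per 1000000, a level per length) or more in both libraries, with a summed TPM of 1135 in replicate 1 and 1731 in replicate 2. The 6 granulocyte and monocyte markers were higher, at a summed 30696 and 16868 TPM, with Mpo, the neutrophil peroxidase, at 10136 and 6523. The 6 B and T cell markers summed to 63.7 and 21.3 TPM, 4 of 6 were at 1 TPM or more in both libraries, and no marker of any list was listed at 0 in both. The cells are therefore called here by their label only, and in such bulk samples fewer cells of a type and less RNA per cell cannot be told apart.

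Replication-dependent histones package newly made DNA, and their genes are switched on together as cells enter S phase. H2A, H2B, H3 and H4 form the core that DNA wraps around, and H1 binds the linker DNA between cores. Their mRNAs have no introns and mostly end, without a poly(A) tail, just after a conserved stem-loop that the protein SLBP binds. Some of these genes can also give longer, polyadenylated mRNAs, which are known from differentiating and resting cells, and a poly(A) library samples only the RNA that its selection captured.

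The 3′ ends of 8 members are shown because the stem-loop is what sets this family apart and because the bases just before it differ between the most abundant members and the rest. Each line gives the 12 bases before the stem-loop in lower case and the 16 bases of the stem-loop in capitals, 5′ to 3′ on the gene's own strand, from GENCODE M21 transcripts on GRCm38.
Hist1h2ao: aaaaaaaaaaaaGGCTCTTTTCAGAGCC
Hist1h2ap: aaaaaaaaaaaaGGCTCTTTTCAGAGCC
Hist2h2aa2: agctcctaaaaaGGCTCTTTTCAGAGCC
Hist1h2ag: atcgccaacaaaGGCTCTTTTCAGAGCC
Hist1h1c: aacaatccaaaaGGCTCTTTTCAGAGCC
Hist3h2a: acagacaccaaaGGCTCTTTTCAGAGCC
Hist1h4m: ttctcaactaaaGGCCCTTTTCAGGGCC
Hist1h4i: atgctacttaaaGGCCCTTTTTAGGGCC

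The stem-loop motif was found on the sense strand of 46 of the 67 members (68.7%), against 70 of all 21951 protein-coding genes, the members included (0.319%). Its letters followed class. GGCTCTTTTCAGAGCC was in 26 members (3 H1, 10 H2A, 8 H2B and 5 H3 genes) and in no H4 gene, while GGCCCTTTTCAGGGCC was in 7 members, all of them H4. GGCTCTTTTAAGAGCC was in 6 members (1 H1, 2 H2B and 3 H3 genes), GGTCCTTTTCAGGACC in the H4 genes Hist1h4b and Hist1h4j, and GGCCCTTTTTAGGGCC in the H4 genes Hist1h4i and Hist2h4. Another 3 forms were in 1 gene each. Of 45 members whose most abundant transcript has 1 length in the tables and in GENCODE M21, 19 had no stem-loop, and 10 of those were annotated over the coding sequence alone, so no match there says only that the annotation stops before it.

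**Figure D1:**
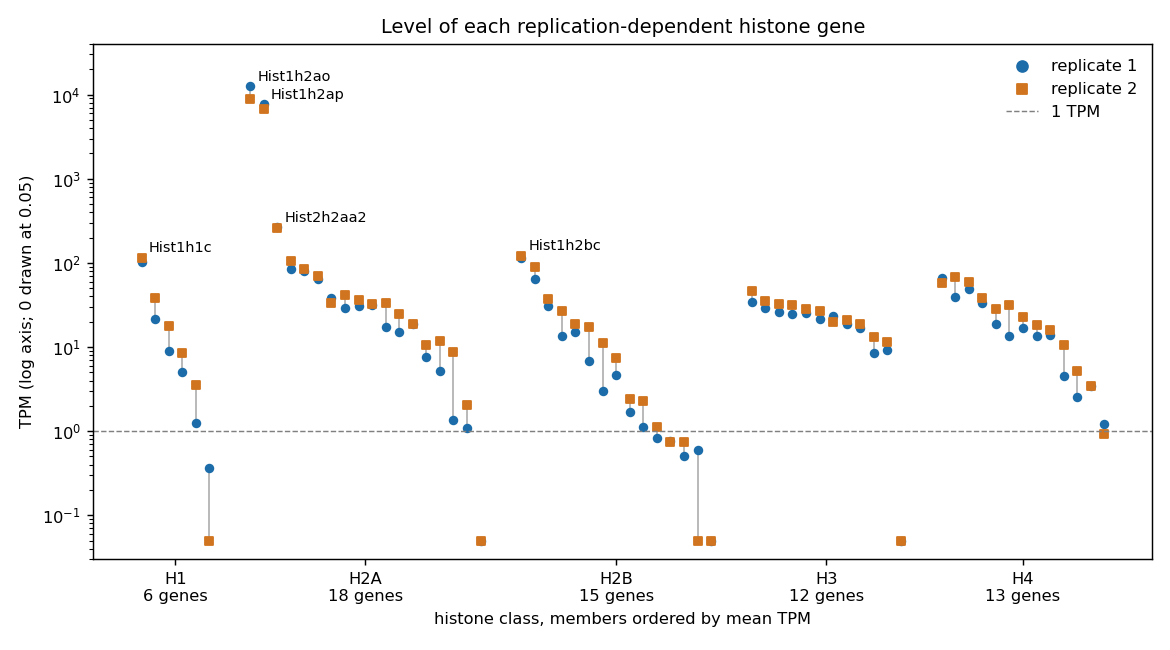
TPM of each of the 64 measured members (log axis) by histone class and, within a class, by mean TPM. Circles are replicate 1 and squares replicate 2, the dashed line is 1 TPM, and a value of 0 is drawn at 0.05. Hist1h2ao and Hist1h2ap lie at 6660 TPM or more in both libraries, and Hist2h2aa2 is next at 266 and 261 TPM.

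Most replication-dependent histone genes were detected, and a pair of H2A genes held nearly all of the family's TPM in these poly(A) libraries. Shares within the family are of captured RNA, and whether capture differs between members was not tested. At a TPM of 1 or more in both libraries, 55 of 64 members were detected, against 46.9% of all protein-coding genes. By mean TPM, 2 members were above 1000, 3 lay between 100 and 1000, 37 between 10 and 100, 14 between 1 and 10, and 8 below 1. The median member was at 15.96 TPM in replicate 1 and 20.3 TPM in replicate 2, against 0.67 and 0.75 TPM for the median protein-coding gene. All members together made up 2.20% of the TPM of replicate 1 and 1.74% of that of replicate 2. As counts per 1000000 (CPM), which do not correct for length, they summed to 6430 and 4933. The median member is 484 bases long.

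Hist1h2ao (chr13:21810465-21810944, plus strand) had 12643 TPM in replicate 1 and 8757 TPM in replicate 2, from 284569 and 155433 estimated counts. Hist1h2ap (chr13:21833026-21833507, minus strand) had 7707 and 6660 TPM, from 174497 and 118913 estimated counts. Both encode the same canonical H2A protein. By mean TPM they ranked 5 and 16 among the protein-coding genes, and together they summed to 20350 and 15417 TPM, against 1605 and 1942 TPM for the other 62 members. The third member, Hist2h2aa2, was 27.2-fold below Hist1h2ap on average (log2 ratio 4.76 ± 0.13, SD, n = 2). The annotated transcripts of the pair, 480 and 482 bases long, share a stretch of 452 bases, and 76.1% of the 50-base words of Hist1h2ao also occur in genes other than Hist1h2ap. How the authors' estimates split reads within the pair, and between the pair and the other H2A genes, is therefore uncertain, and the Hist1h2ao value in replicate 2 lay above the authors' own interval for it (8494 to 8753 TPM). Their sum is less touched by a split within the pair: it was higher in replicate 1, as each of the pair was.

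The pair also stood apart by a run of A. Among the 45 members with 1 transcript length in both annotations, only Hist1h2ao and Hist1h2ap carried 12 A in a row, directly before the stem-loop as printed above. The longest run in the other 43 was 6. Of the members outside these 45, Hist1h2ac has a run of 15 A in its GENCODE M21 transcript of 2482 bases, while the tables list it with 476 bases. Only 3 A stand directly before its stem-loop. Hist1h2be, at 0.83 and 1.12 TPM, has a run of 11 A. Over all protein-coding genes 12.6% had a run of 12 or more A in some transcript. The run's part in their level was not tested.

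**Figure D2:**
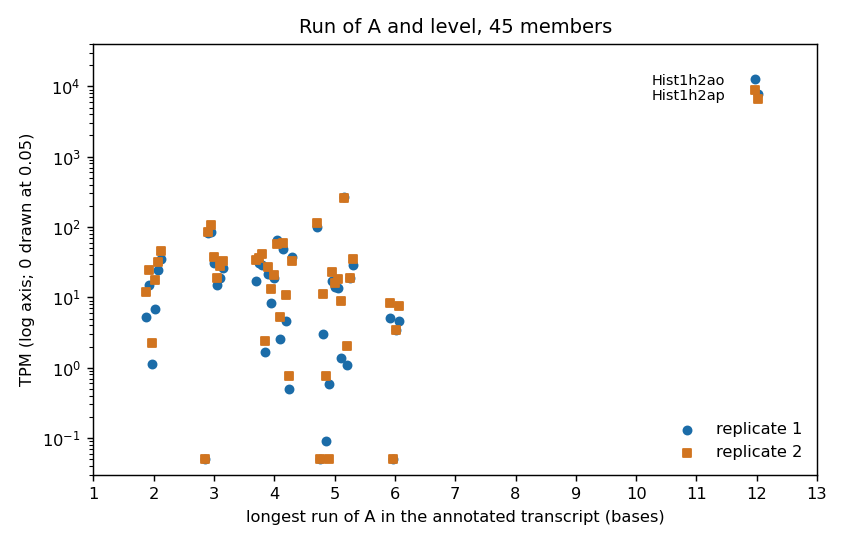
TPM of the most abundant transcript (log axis) against the longest run of A in it for the 45 members whose transcript length agrees between the tables and GENCODE M21. Circles are replicate 1, squares replicate 2, points of 1 run length are spread sideways for legibility, and 0 is drawn at 0.05. Hist1h2ao and Hist1h2ap are at 12 bases, and all others at 6 or fewer.

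By class, H2A led the family with and without the pair. H2A genes summed to 21042 TPM in replicate 1 and 16193 TPM in replicate 2, which was 94.6% ± 1.81 of all member TPM (SD, n = 2), against 1.66% ± 0.574 for H4, 1.56% ± 0.539 for H2B, 1.36% ± 0.396 for H3 and 0.846% ± 0.301 for H1. Without Hist1h2ao and Hist1h2ap, the other 16 H2A genes summed to 692 and 776 TPM and held 41.5% ± 2.24 of the rest. Of that sum Hist2h2aa2 alone gave 266 and 261 TPM, so the lead of H2A without the pair rests largely on 1 gene. The ratios below include Hist2h2aa2 and were not computed without it. In the same 62 members H4 held 17.8% ± 0.917, H2B 16.8% ± 0.856, H3 14.8% ± 0.101 and H1 9.07% ± 0.573. A ratio between classes was called larger than the replicate spread where it had 1 sign in both libraries, was over 2-fold on average and exceeded its SD. Of 10 ratios of summed TPM, the 4 that involve H2A passed this rule, both with and without the pair. Without it H2A stood 2.47-fold over H2B (log2 1.31 ± 0.15), 2.33-fold over H4 (1.22 ± 0.15) and 2.81-fold over H3 (1.49 ± 0.07). H1 lay 4.58-fold below H2A (log2 of H1 over H2A -2.20 ± 0.17). H2B, H3 and H4 lay close together, at 260, 238 and 276 TPM in replicate 1 and 338, 285 and 359 TPM in replicate 2, and none of their 3 ratios passed. H1, at 139 and 184 TPM, was below H4 by 1.97-fold, just under the rule. In CPM, which do not divide by length, the order changed: H1, with a median length of 744 bases against 430 for H4, summed to 139 and 166 CPM, against 101 and 119 for H2B, 87.3 and 101 for H3 and 86.8 and 98.8 for H4, and stood 1.64-fold over H4 (log2 0.71 ± 0.05). In CPM the gap of H1 below H2A without the pair was 1.62-fold (log2 -0.70 ± 0.16), under the rule, while H2A without the pair stayed over H2B, H3 and H4 by 2.24-fold to 2.66-fold.

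**Figure D3:**
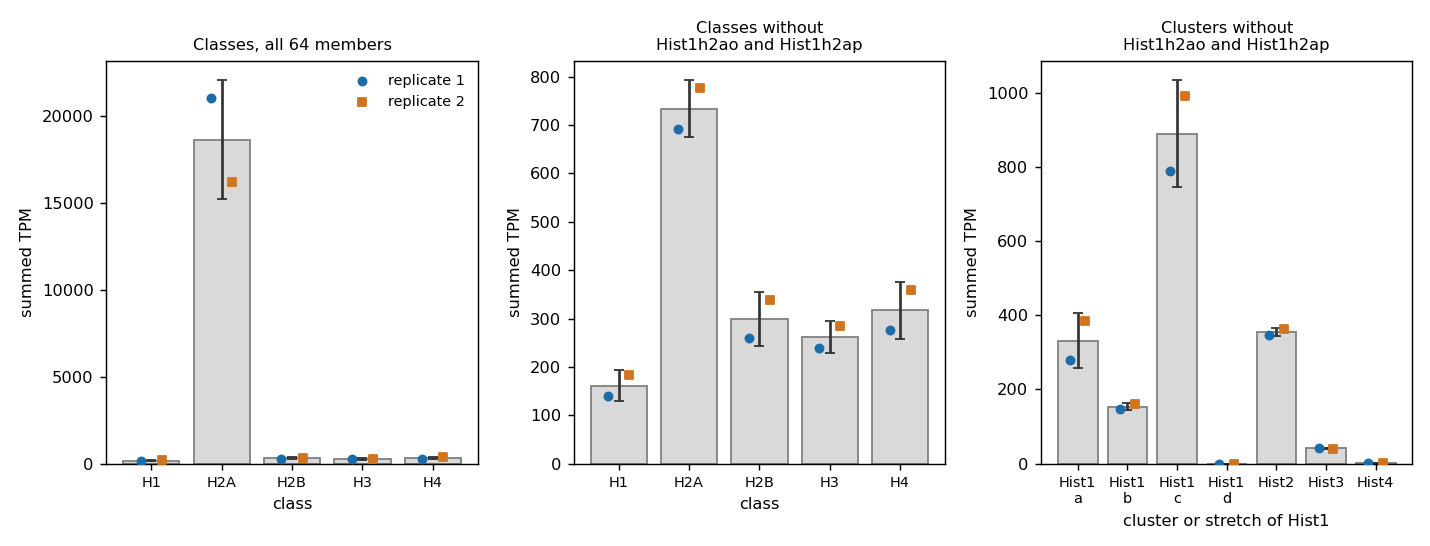
Summed TPM of each class with all 64 members (left), of each class without Hist1h2ao and Hist1h2ap (middle), and of each cluster without the pair, with Hist1 split into its stretches a to d (right). Bars are means over the 2 libraries, error bars SD, circles replicate 1 and squares replicate 2. Without the pair H2A is at 692 and 776 TPM, and stretch c of Hist1 leads the clusters at 788 and 992 TPM.

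Medians gave another order than sums. The median gene was at 22.5 and 24.0 TPM in H3 and at 23.9 and 32.9 TPM in H2A without the pair, against 13.8 and 22.9 TPM in H4, 6.99 and 13.2 TPM in H1 and 2.99 and 7.41 TPM in H2B. H2B was thus the class with the lowest median while its sum was like that of H3 and H4. Its sum rested on few genes: Hist1h2bc and Hist1h2bg alone gave most of it.

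Among the H1 genes, 1 gene dominated. Hist1h1c had 102 and 116 TPM, 73.1% of H1 TPM in replicate 1 and 62.9% in replicate 2. Its annotated transcript is 1560 bases long and runs 840 bases past the stem-loop, with the polyadenylation signal AATAAA in its last 40 bases. Hist1h1e followed with 21.7 and 38.2 TPM, and Hist1h1c was 3.76-fold over it (log2 1.91 ± 0.44). Hist1h1d had 8.92 and 18.02 TPM, Hist1h1b 5.06 and 8.43, and Hist1h1a 1.26 and 3.50. The testis H1 gene Hist1h1t was at 0.36 TPM in replicate 1 and listed at 0 in replicate 2. The order of the 5 somatic H1 genes was the same in both libraries, and each was higher in replicate 2. The 6 H1 genes encode distinct proteins with little shared sequence (median 1.13% of 50-base words shared with another gene), the lowest share of any class. These shares are over GENCODE M21 transcripts. For Hist1h1d and Hist1h1e these have 7425 and 1930 bases, against 744 and 748 as quantified, so their shares over the quantified length may differ.

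Below the pair, the H2A genes spread widely. Hist2h2aa2 had 266 and 261 TPM, Hist1h2ak 84.7 and 107, Hist1h2af 81.0 and 84.5, and Hist1h2ac 65.2 and 70.4. The Hist3 gene Hist3h2a had 38.1 and 33.3 TPM from a transcript of 2146 bases that also ends near AATAAA, and its neighbour Hist3h2ba, an H2B gene, had 4.62 and 7.41 TPM. At the low end, Hist2h2ab had 1.09 and 2.02 TPM, and Hist1h2aa, the testis H2A gene, was listed at 0 in both libraries. Of the 18 H2A genes 9 encode 1 identical protein, to which the pair belongs, and this group held 97.6% and 96.7% of H2A TPM.

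Hist2h2aa2 lay far above Hist2h2aa1, and both share sequence with another annotated gene. They encode 1 protein, and every 50-base word of Hist2h2aa2, with 89.4% of those of Hist2h2aa1, also occurs in the annotated gene Gm20634 (11.1 and 8.93 TPM). Hist2h2aa1 had 1.37 TPM in replicate 1 and 8.75 TPM in replicate 2, the largest relative difference of the members that passed the count filter. The sum of the 2 genes was 267 and 270 TPM. Hist2h2aa2 alone, at 266 and 261 TPM, gave nearly all of it, so the sum does not show how reads were split.

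H2B rested on Hist1h2bc, with 116 and 122 TPM, and Hist1h2bg, with 64.4 and 88.9 TPM, which share 1 protein with Hist1h2be (0.83 and 1.12 TPM). That protein group held 69.7% and 62.9% of H2B TPM. Hist1h2bj had 30.8 and 37.3 TPM and Hist1h2bb 13.6 and 27.0. Hist2h2be, whose transcript of 2620 bases holds no stem-loop, was at 0.50 and 0.75 TPM. Hist1h2bq had 0.59 TPM in replicate 1 and was listed at 0 in replicate 2, and the testis gene Hist1h2ba was listed at 0 in both. The H2B class had the most members under 1 TPM in at least 1 library, 5 of 15, against 1 each of 18 H2A, 12 H3, 13 H4 and 6 H1 genes.

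H3 was the most even class. Apart from Hist2h3c1, listed at 0 in both libraries, its members ranged from 8.39 to 34.8 TPM in replicate 1 and from 11.5 to 45.7 TPM in replicate 2. Hist1h3i led with 34.8 and 45.7 TPM, then Hist2h3b with 29.1 and 35.5, Hist2h3c2 with 26.2 and 32.7, and Hist1h3h with 24.6 and 31.7. The lowest with a value were Hist1h3b at 8.39 and 13.1 TPM and Hist1h3f at 9.25 and 11.5. The class has 2 main proteins that differ at 1 residue: 7 genes gave one of them (141 and 162 TPM) and 4 genes the other (97.6 and 124 TPM). Every 50-base word of Hist2h3c1 also occurs in Gm20634, so its 0 does not show that the locus is silent.

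The H4 genes encode 1 identical protein from 13 loci, and no locus dominated. Hist1h4i had 65.7 and 56.9 TPM, Hist1h4d 39.5 and 68.9, Hist1h4m 49.0 and 58.9, and Hist1h4h 33.4 and 37.8. Hist1h4i and Hist1h4d changed places between the libraries, so their order is not larger than the replicate spread. By mean TPM the lowest were outside the large cluster. Hist2h4 had 3.48 and 3.47 TPM from a transcript of 1630 bases, and Hist4h4 1.21 and 0.93 TPM from one of 2879 bases. Hist1h4j, at 2.57 and 5.23 TPM, was below Hist2h4 in replicate 1. This order depends on the division by length: in CPM Hist2h4, at 4.31 and 4.18, was above Hist1h4j, at 1.36 and 2.66.

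By position, the Hist1 genes on chromosome 13 fall into 4 stretches separated by gaps of over 100 kb. Stretch a (chr13:21715763-21837530, 17 measured genes) holds the pair and summed to 20629 and 15801 TPM, 92.5% ± 2.08 of all member TPM. Without the pair its other 15 genes summed to 279 and 384 TPM, 18.6% ± 1.68 of the rest. Stretch b (chr13:22035164-22043676, 5 genes) summed to 147 and 161 TPM. Stretch c (chr13:23531050-23764406, 28 measured genes, with 5 of the 6 H1 genes) summed to 788 and 992 TPM, 50.1% ± 1.40 of the rest, with a median gene at 17.0 and 24.9 TPM. Stretch d (chr13:23933773-23934851) holds only the testis genes Hist1h2ba and Hist1h2aa, both listed at 0. The Hist2 cluster (chr3:96219865-96270132, 9 measured genes) summed to 346 and 363 TPM, 20.1% ± 2.04 of the members without the pair, of which Hist2h2aa2 gave most. Among its other H2A genes Hist2h2ac had 18.7 TPM in both libraries. The median Hist2 gene was at 3.48 and 8.75 TPM, against 15.96 and 21.9 TPM for the median Hist1 gene without the pair. The Hist3 cluster (chr11:58948920-58956830) summed to 42.7 and 40.7 TPM, and Hist4 (chr6:136801553-136804415) is the single gene Hist4h4.

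Many H2A and H2B genes start head to head and share the DNA between their starts, but their poly(A) RNA was often unequal. There were 12 such H2A and H2B pairs, with 175 to 305 bases between starts. In 6 the H2A gene was higher in both libraries and in 4 the H2B gene was. By the rule used for class ratios, 7 of the 10 pairs with all values above 0 were unequal, 5 toward H2A and 2 toward H2B. Hist1h2an over Hist1h2bp was 45.7-fold (29.0 against 0.76 TPM in replicate 1 and 41.0 against 0.75 TPM in replicate 2). Hist2h2ac over Hist2h2be was 30.5-fold, and Hist1h2ai over Hist1h2bl 12-fold. Part of the gap between Hist2h2ac and Hist2h2be comes from the division by length, with 520 bases against 2620. Their estimated counts were 470 against 82 in replicate 1 and 372 against 98 in replicate 2. Toward H2B, Hist1h2bg was 2.37-fold over Hist1h2ae and Hist1h2bk 2.15-fold over Hist1h2ah. Hist1h2ag and Hist1h2bj were at 30.4 and 30.8 TPM in replicate 1 and at 36.2 and 37.3 TPM in replicate 2, nearly equal in each.

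**Figure D4:**
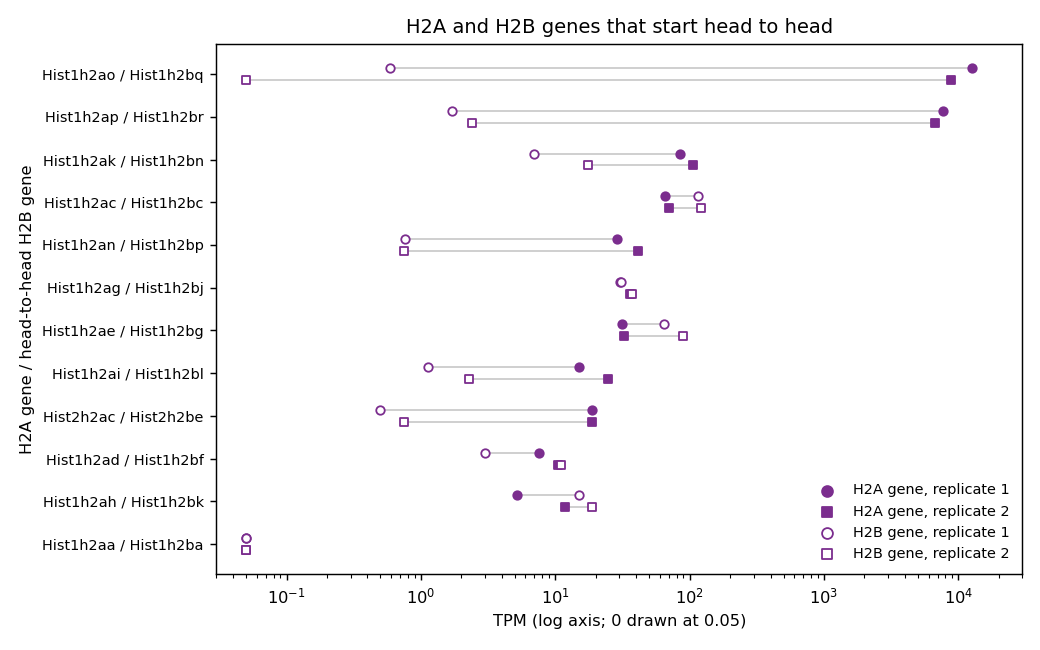
TPM (log axis) of the H2A gene (filled) and the H2B gene (open) of 12 pairs that start head to head. Circles are replicate 1, squares replicate 2, and 0 is drawn at 0.05. Hist1h2ao and Hist1h2ap lie far above their H2B neighbours, at 6660 TPM or more against 2.40 TPM or less, Hist1h2ag and Hist1h2bj coincide, and the testis pair is at 0.

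The partners of the dominant pair had little RNA by their gene rows. Hist1h2bq, which starts 267 bases from Hist1h2ao, was at 0.59 and 0 TPM, and Hist1h2br, which starts 235 bases from Hist1h2ap, at 1.69 and 2.40 TPM. Their shorter transcripts stand in rows with other gene identifiers in the older annotation of the tables, and adding them brings Hist1h2bq to 9.29 and 4.96 TPM and Hist1h2br to 3.83 and 5.45 TPM. Even so summed, the partners lay from 1222-fold to 2012-fold below Hist1h2ao and Hist1h2ap in the 2 libraries. Hist1h2bq and Hist1h2br share all of their shortest sequence with each other, so the split between them is uncertain.

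The upstream DNA of Hist1h2ap and of Hist1h2aa, a gene listed at 0 in both libraries, is shown for contrast, with CCAAT and TATAAA on either strand in capitals. Each is the 150 bases before the RefSeq start on GRCm38.p6, 5′ to 3′ on the gene's strand, chr13:21833476-21833625 (minus strand) for Hist1h2ap and chr13:23934287-23934436 (plus strand) for Hist1h2aa. The GENCODE start lies 32 bases upstream of the RefSeq start for Hist1h2ap and 25 bases downstream of it for Hist1h2aa.
Hist1h2ap: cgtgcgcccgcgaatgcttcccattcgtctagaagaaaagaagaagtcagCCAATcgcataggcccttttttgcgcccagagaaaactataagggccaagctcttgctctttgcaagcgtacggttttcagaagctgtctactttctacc
Hist1h2aa: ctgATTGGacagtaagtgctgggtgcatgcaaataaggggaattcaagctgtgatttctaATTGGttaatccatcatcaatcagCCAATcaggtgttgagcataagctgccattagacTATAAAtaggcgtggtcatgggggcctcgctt

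Of 62 members with a RefSeq promoter of 300 bases (250 before to 50 after the start), 53 held CCAAT on either strand (85.5%, against 37.4% of 32851 promoters) and 35 held TATAAA (56.5%, against 13.6%). CCAAT was least frequent in H4: it was in all 6 H1, 18 H2A, 16 H2B and 10 H3 promoters and in 3 of 12 H4 promoters. TATAAA was in 4 of 6 H1, 11 of 18 H2A, 8 of 16 H2B, 4 of 10 H3 and 8 of 12 H4 promoters. Between the 2 promoters printed, that of Hist1h2aa, the gene listed at 0, holds the TATAAA and more CCAAT. A match is a run of letters, not a shown binding site.

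Transcripts annotated as long gave a small share of the family's TPM, and a larger one without the pair. Transcripts over 1000 bases held 0.793% of member TPM in replicate 1 and 1.10% in replicate 2, and without Hist1h2ao and Hist1h2ap 10.9% and 9.81%. Hist1h1c gave most of it, followed by Hist3h2a and Hist2h3c2. These shares rest on the lengths of the older annotation, which lists several members as shorter than GENCODE M21 does. Hist1h2bc has 736 bases there against 1156 in GENCODE M21, Hist1h2ac 476 against 2482, and Hist1h4d 393 against 1138. Such members counted as short, and the share with GENCODE M21 lengths was not computed. The H2B genes Hist1h2be, Hist1h2bq and Hist1h2br have several transcripts in the tables, of which the ones over 1000 bases held all of their gene rows' TPM, at 2.40 TPM or less. Of the 45 members with 1 transcript length in both annotations, 10 had AATAAA in the last 40 bases, with a median of 3.03 and 4.35 TPM, against 18.7 and 24.5 TPM for the 35 without. Several of the 10 are long, up to 2620 bases in Hist2h2be, so the division by length may give part of this gap. These medians were not computed in CPM. Members that end within 60 bases of the stem-loop (16 genes) had a median of 17.9 and 23.0 TPM, those that run over 60 bases past it (10 genes) 17.9 and 21.9 TPM, and those with no annotated stem-loop (19 genes) 5.18 and 11.7 TPM. In CPM the members that run over 60 bases past the stem-loop had a median of 8.28 and 9.50, above the 5.33 and 7.12 of those that end within 60 bases, so the order of these 2 groups depends on the division by length.

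The libraries ranked the members alike, while most members were higher in replicate 2. Across the 64 members, which share each library's depth, Spearman's rho of TPM between replicates was 0.978, beside 0.975 over all protein-coding genes. On CPM scaled by edgeR, with replicate 1 minus replicate 2 as the difference, 59 members passed the filter on low counts, and 7 of them (11.9%) were over 2-fold apart, against 6.4% of all 13546 genes that passed. All 7 were higher in replicate 2, a direction in which 3.22% of all genes were as far apart. With no filter on low counts 2 more of the 64 members were over 2-fold apart, both higher in replicate 1: Hist1h2bq, with 72.95 and 0 estimated counts, and Hist1h1t, with 14 and 0. In all, 46 of 59 members (78.0%) were higher in replicate 2 by any amount, against 49.8% of all genes, with a median log2 difference of -0.27 over members and 0.00 over all genes. Of the 59, 42 were within 1.5-fold.

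Beside Hist2h2aa1 (log2 -2.51), those over 2-fold apart were Hist1h2bf at 2.99 and 11.1 TPM (-1.75), Hist1h1a at 1.26 and 3.50 TPM (-1.31), Hist1h2bn at 6.91 and 17.4 TPM (-1.20), Hist1h4n at 4.57 and 10.7 TPM (-1.08), Hist1h4c at 13.6 and 31.2 TPM (-1.06) and Hist1h2ah at 5.18 and 11.7 TPM (-1.04). They come from 4 classes. For 6 of the 7 the authors' intervals in the 2 libraries did not touch, the exception being Hist1h4n, but the same held for 35 of all 64 members. The share over all genes was not computed, so neither count can be read as a trait of these genes. Hist1h1a shares no 50-base word with another gene and Hist1h4c 19.6%, but in the other 5 from 65.8% to 90.7% of words are shared. The share of Hist1h4c is over its GENCODE M21 transcript of 820 bases, while it was quantified with 395 bases. Its share over the shorter length was not computed. Among members with a mean TPM of 5 or more, the 5 farthest toward replicate 1 were Hist1h2ao (0.65), Hist1h3d (0.38, at 23.6 and 19.7 TPM), Hist1h2ap (0.33), Hist1h4i (0.31) and Hist3h2a (0.29).

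By class, all 5 H1 genes that passed were higher in replicate 2 (median log2 -0.70), as were 12 of 13 H2B (-0.39), 10 of 13 H4 (-0.32), 10 of 11 H3 (-0.21) and 9 of 17 H2A genes (-0.14). The difference between classes was not tested. The sum of the family ran the other way, 21954 TPM in replicate 1 and 17359 TPM in replicate 2, because the pair was higher in replicate 1; the other 62 members summed to 1605 and 1942 TPM.

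**Figure D5:**
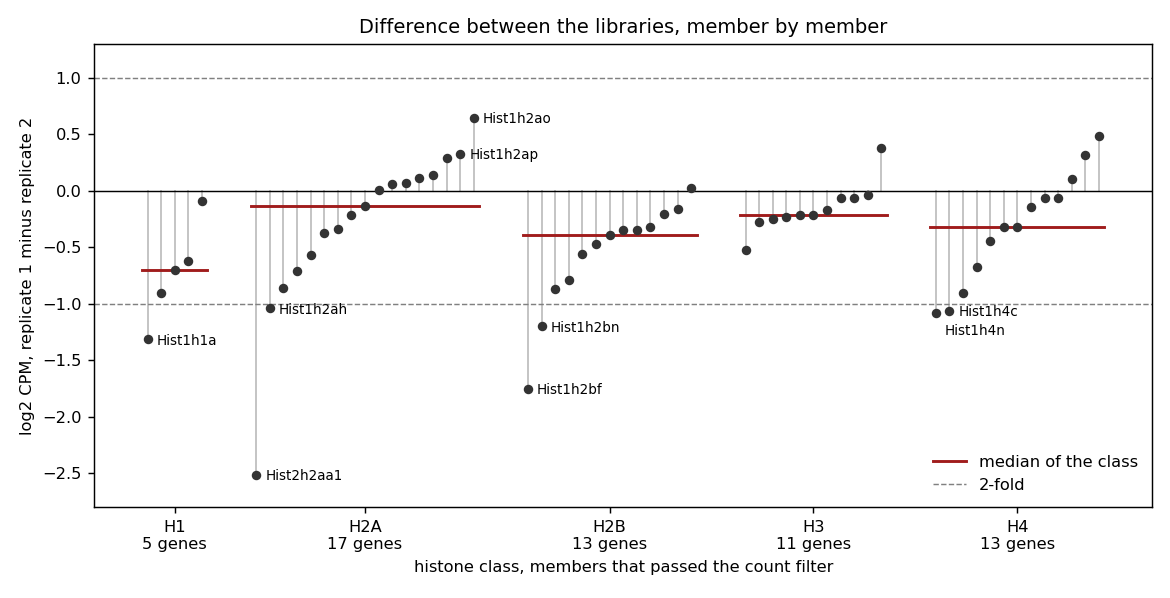
Log2 CPM, replicate 1 minus replicate 2, of the 59 members that passed the count filter, by class. Each point is a gene, red lines are class medians and dashed lines mark 2-fold. Points below 0 are higher in replicate 2: all 5 H1 genes are, and none of the 59 is over 2-fold higher in replicate 1.

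Other values moved with this difference, and their part in it was not tested. Of 9 RNAs without a long poly(A) tail that passed the filter, 8 were also higher in replicate 2 (median log2 -0.85, 4 of them over 2-fold). In that list Rn7sk, a small nuclear RNA that holds back transcription elongation, had 3438 and 4286 TPM, and Rn7s1 and Rn7s2, copies of the signal recognition particle RNA, 323 and 1289 TPM each, while Rny1, Rny3, Rnu12 and Rnu73b were listed at 0 in both. Rn7s1 and Rn7s2 had identical estimates and are both among the 8 and the 4, so these counts are not all of separate RNAs. Of all genes that passed, 6.4% were over 2-fold apart. All 6 granulocyte and monocyte markers were higher in replicate 1 (median log2 0.96), with Prtn3 at 10600 and 5185 TPM and Elane at 8624 and 4337 TPM, and Csf1r at 27.3 and 16.4 TPM and Cd14 at 7.30 and 3.03 TPM as the lowest. The 5 B and T cell markers that passed were higher in replicate 1 as well (1.52), led by Cd79a at 32.3 and 11.7 TPM, Pax5 at 24.5 and 6.19 and Ebf1 at 3.03 and 1.80, with Cd3e at 0.33 and 0.31 and Cd8a at 0.13 and 0.01 lowest. Of the 10 erythroid and megakaryocytic markers 8 were higher in replicate 2 (-0.22), where Hba-a1 had 878 TPM against 498 in replicate 1, Car2 195 against 157 and Itga2b 211 against 115. The lowest of that list were Tfrc at 3.03 and 9.48 TPM, which was counted as higher in replicate 1 because its estimated counts were 760 and 530 (log2 CPM difference 0.29), against the direction of its TPM, and Pf4 at 5.59 and 6.85 TPM.

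Genes of DNA replication and its licensing were split between the 2 directions, and their relation to the difference of the histone genes was not tested. All 20 were at 1 TPM or more in both libraries, 13 were higher in replicate 1 and 7 in replicate 2 (median log2 0.09), and none was over 2-fold apart. Cdt1, a licensing factor, had 380 and 356 TPM, the polymerase subunit Pold1 351 and 359, and the helicase subunit Mcm2 283 and 305. The lowest were the polymerase subunit Pola1 at 4.15 and 3.94 TPM and the licensing factor Cdc6 at 3.23 and 2.54 TPM.

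The genes that process histone mRNA were present. Of 16 genes of histone mRNA processing and transcription, 14 were at 1 TPM or more in both libraries, 6 were higher in replicate 1 and 10 in replicate 2 (median log2 -0.13), and none was over 2-fold apart. Slbp, the stem-loop binding protein, had 196 and 215 TPM. The other high genes were Srrt, which links the cap to 3′ end processing, with 239 and 307 TPM, and Sympk, a scaffold of the cleavage complex, with 201 and 236 TPM. Npat, the activator of histone gene transcription, was among the lowest with 0.88 and 1.5 TPM, as was Zfp473, a factor of histone pre-mRNA processing, with 0.26 and 0.17 TPM.

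All 16 histone chaperones were at 1 TPM or more in both libraries, 5 higher in replicate 1 and 11 in replicate 2 (median log2 -0.12), with none over 2-fold apart. Nap1l1, which carries H2A and H2B, had 196 and 226 TPM, Asf1b, which carries H3 and H4, 224 and 178, and Rbbp7, a histone-binding subunit of chromatin complexes, 90.9 and 127. The lowest were Supt16 of the FACT complex at 15.8 and 16.7 TPM and Asf1a at 8.52 and 8.70 TPM.

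Replacement histone genes, most of which give polyadenylated mRNA, were set beside the classes they belong to. The mRNAs of those classes mostly end without a poly(A) tail, so the selection may capture both sides unequally. The ratios below are of captured RNA, and how far capture differs was not tested. Of 12, 11 were at 1 TPM or more in both libraries, 5 were higher in replicate 1 and 6 in replicate 2 (median log2 -0.01), and none was over 2-fold apart. H2afy, the macroH2A gene, had 2496 and 2739 TPM, H2afz 2442 and 2582, and H3f3a 1824 and 1639. H2afy2, at 1.08 and 2.17 TPM, and H1foo, an oocyte H1 gene listed at 0 in both, were lowest. H3f3a and H3f3b together stood 10.9-fold over the summed H3 members (log2 3.44 ± 0.30), and H2afz 3.43-fold over the 16 H2A members without the pair (1.78 ± 0.06). Against all 18 H2A members, the pair included, H2afz was 7.35-fold lower (log2 -2.88 ± 0.32). The replacement linker histones lay on both sides of their class. H1f0 was at 66.8 and 89.1 TPM, below the summed H1 members at 139 and 184 TPM (log2 -1.05 ± 0.01). H1fx, at 166 and 297 TPM, was above that sum in both libraries.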

How the data were processed

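The authors deposited a gene and a transcript table per library. Per the text file deposited with each sample the assembly was mm10 with GENCODE M4. Not given in the sources used here were the aligner, the program of quantification and strand handling. Per the file headers, the deposited values used are expected counts, which share reads among the genes they fit, TPM, posterior mean TPM, and interval bounds with no stated level. The level of 3 counts, used as a floor, is 0.0377 counts per 1000000 in replicate 1 and 0.0459 in replicate 2, and intervals cover quantification error only.

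Gene IDs without version were matched to GENCODE M21 (42462 of 43346). The members and lists were chosen with earlier results of these data known. Expected counts were rounded to whole numbers and scaled with edgeR 4.0.16 (TMM, filterByExpr, intercept only, prior count 2), or with DESeq2 1.42.0 as an alternative, and the steps were tested on simulated data. Replicate numbers come from the labels. Full values were given for the 4 highest and 2 lowest members of each class, all H1, Hist2, Hist3 and Hist4 genes, the 5 farthest apart in each direction at a mean TPM of 5 or more, and the 3 highest and 2 lowest of each list. Other members were named for shared sequence or position after their values were seen. Protein groups came from translated GENCODE M21 coding sequences. Promoters are from RefSeq (GRCm38.p6), where 62 members matched. Stem-loops, runs of A and 50-base words were searched in GENCODE M21 transcripts with Python 3.11.15.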

Additional observations from a re-analysis of the deposited data

Results flagged for a closer look

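Some RNA of the family lies in rows that no comparison above used, each above the level of 3 counts in at least 1 library. Among pseudogenes with the same kind of symbol, Hist3h2bb-ps had 4.28 and 1.06 TPM (mean 2.67), Hist1h2al 0.46 and 1.04 TPM (mean 0.75) and Hist1h2aj 1.46 and 0 TPM (mean 0.73). Transcripts that GENCODE M21 gives to members but that the tables list under other gene identifiers were Hist1h2bq-201 at 8.70 and 4.96 TPM (mean 6.83), Hist1h2br-202 at 2.14 and 3.05 TPM (mean 2.59) and Hist2h2bb-201 at 0.37 and 1.38 TPM (mean 0.875). For Hist1h2bq the transcript listed elsewhere held more than its gene row.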

How the results depend on the processing

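The median difference between libraries kept its sign under the alternatives run, but the order of classes did not. With Hist1h2ao and Hist1h2ap left out, chosen after seeing the data, the members held 0.177% of library TPM, against 1.97% with them. H1 then held 9.07%, H2A 41.5%, H2B 16.8%, H3 14.8% and H4 17.8% of member TPM, Hist1 77.4%, Hist2 20.1%, Hist3 2.38% and Hist4 0.0617%, and transcripts over 1000 bases 10.3%. In CPM, where longer transcripts weigh more, the members held 0.568% of the library, H1 2.76%, H2A 91.9%, H2B 2.00%, H3 1.70% and H4 1.68% of the members, so that H1 stood above H2B, H3 and H4 and not below them as in TPM, and the clusters were Hist1 96.6%, Hist2 2.29%, Hist3 1.08% and Hist4 0.0423%. Leaving out 6 members whose TPM lay outside the authors' interval removes Hist1h2ao, and the members then held 0.896% of library TPM, with H1 at 1.81%, H2A 88.3%, H2B 3.35%, H3 2.94%, H4 3.57%, Hist1 95.6%, Hist2 3.97%, Hist3 0.466% and Hist4 0.0119%. At 1.5-fold in place of 2-fold, 17 members were apart between libraries. With 1 library left out at a time the share of library TPM ranged from 1.74% to 2.20% and that of H2A from 93.3% to 95.8%. The median difference between libraries ranged from -0.328 to -0.217 over the other scalings, filters and prior counts, and 45 to 59 members were detected at TPM thresholds of 5 and 0.1. Transcript rows assigned by GENCODE M21, added after seeing the data, moved no share by more than the SD between libraries. No paired analysis was possible because there is 1 group. Depth limits the members at under 1 TPM, and shared sequence limits the split among near-identical copies.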
